A study of Mus musculus with 6 samples.

Results

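H19, Igf2, Igf2r, Grb10 and Cdkn1c are 5 mouse imprinted genes that act on growth, and they were followed in embryonic stem cells with and without the splicing factor ZRSR2. Introns were assigned to a gene when they lay inside its mm10 RefSeq span and on its strand. This gave 77 of the 219945 listed introns and 5 of the 25120 genes that hold one. H19 had 4 introns, Igf2 had 5, Igf2r had 47, Grb10 had 19 and Cdkn1c had 2. The genes were selected on the difference of their spliced read counts between knockout and wild type in these same 6 libraries, so their differences between the groups are given as a description and carry no test.

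The study compared 3 wild-type with 3 ZRSR2 knockout libraries of ES cells of the line VGB6, numbered 2, 3 and 5 in both groups. Poly(A)-selected RNA was sequenced, and no treatment is named. The labels do not say how ZRSR2 was removed, whether the knockout is a single clone, or whether the numbers stand for separate cultures, so the spread between libraries may be technical. ZRSR2 is a protein of the minor spliceosome, which removes the rare U12-type introns. Zrsr2 itself had 660, 2190 and 2129 spliced reads in wild-type replicates 2, 3 and 5, and 33, 12 and 0 in the knockout replicates.

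An imprinted gene is read mainly from the copy of 1 parent. On distal chromosome 7 the paternal copy gives Igf2, a fetal growth factor, and the maternal copy gives H19, a noncoding RNA, and the pair share enhancers that a methylation-sensitive boundary directs to one gene or the other. Igf2r encodes the receptor that carries IGF2 and mannose 6-phosphate proteins to the lysosome for breakdown, Grb10 an adaptor that damps insulin and IGF1 receptor signalling, and Cdkn1c the cyclin-dependent kinase inhibitor p57. All 3 are known to restrain growth. The libraries do not separate the parental copies, so the values below are sums over both.

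All 5 genes lie on the minus strand. H19, a lncRNA, spans chr7:142575530-142578146, Igf2 spans chr7:142650768-142666816 and Cdkn1c spans chr7:143458339-143461059. Grb10 spans chr11:11930499-12037428 and Igf2r spans chr17:12682406-12769706. Igf2 and Grb10 can start at more than 1 first exon, and the reads that join each first exon to the next one are counted further on. The 250 bases upstream of those starts are shown here because they are what the first-exon counts compare (RefSeq, GRCm38.p6, 5′ to 3′ on the minus strand). Capitals mark the GC box, GGGCGG or its reverse complement CCGCCC, and boxes that overlap run together. The lines are Igf2 upstream (chr7:142666817-142667066), Igf2 middle (chr7:142658805-142659054), Igf2 downstream (chr7:142657497-142657746), Grb10 upstream (chr11:12037421-12037670) and Grb10 downstream (chr11:12027972-12028221).
Igf2 upstream: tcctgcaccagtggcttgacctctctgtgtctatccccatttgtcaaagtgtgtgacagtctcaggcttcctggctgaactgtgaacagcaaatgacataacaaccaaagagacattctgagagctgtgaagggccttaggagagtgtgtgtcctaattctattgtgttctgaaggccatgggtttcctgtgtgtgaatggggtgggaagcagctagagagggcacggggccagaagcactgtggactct
Igf2 middle: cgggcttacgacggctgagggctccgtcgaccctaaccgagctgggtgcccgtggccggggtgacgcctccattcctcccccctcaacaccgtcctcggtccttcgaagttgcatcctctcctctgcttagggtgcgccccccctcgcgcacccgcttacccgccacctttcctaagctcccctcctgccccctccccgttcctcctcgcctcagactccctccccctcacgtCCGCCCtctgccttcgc
Igf2 downstream: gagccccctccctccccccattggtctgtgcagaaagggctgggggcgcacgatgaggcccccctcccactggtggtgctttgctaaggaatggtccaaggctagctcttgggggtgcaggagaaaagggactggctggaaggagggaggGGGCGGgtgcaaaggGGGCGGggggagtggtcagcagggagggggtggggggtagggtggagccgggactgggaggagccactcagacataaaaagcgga
Grb10 upstream: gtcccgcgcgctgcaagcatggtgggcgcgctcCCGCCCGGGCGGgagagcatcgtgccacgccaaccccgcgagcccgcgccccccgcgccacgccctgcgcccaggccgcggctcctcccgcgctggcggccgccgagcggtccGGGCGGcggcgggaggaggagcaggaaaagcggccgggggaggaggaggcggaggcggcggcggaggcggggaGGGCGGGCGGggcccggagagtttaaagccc
Grb10 downstream: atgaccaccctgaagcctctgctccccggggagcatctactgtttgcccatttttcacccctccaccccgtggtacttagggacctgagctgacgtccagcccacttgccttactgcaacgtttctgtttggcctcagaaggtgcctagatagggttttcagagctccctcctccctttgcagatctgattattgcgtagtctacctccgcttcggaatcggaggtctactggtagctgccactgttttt

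A GC box occurred in 32.7% of the 32851 RefSeq promoter windows of this length. It was found 0 times before the upstream start of Igf2, 1 time before the middle start and 2 times before the downstream start. Before the upstream start of Grb10 it was found 5 times, and before the downstream start 0 times. CG dinucleotides, the sites of DNA methylation, numbered 1, 22 and 6 before these 3 Igf2 starts and 40 and 8 before the 2 Grb10 starts, where the median window holds 6 (quartiles 2 and 16). Another RefSeq start of Igf2, chr7:142661271, has no listed first-exon intron and was not counted; its window holds 10 CG dinucleotides and 0 GC boxes. The start of Igf2r, chr17:12769706, has 3 GC boxes, 2 E-boxes (CACGTG, in 6.02% of windows) and 27 CG dinucleotides in its window.

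H19 and Igf2 also hold a microRNA. The miR-675 hairpin (chr7:142577064-142577147) lies between the start of H19 and its first listed intron, and the miR-483 hairpin (chr7:142654924-142654996) lies in intron 4 of Igf2. Their mature RNAs are shown because the H19 and Igf2 introns described below flank or contain them, with the seed, bases 2 to 8, in capitals. They were not measured in these libraries.
miR-675-5p: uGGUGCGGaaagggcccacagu
miR-675-3p: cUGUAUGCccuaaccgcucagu
miR-483-5p: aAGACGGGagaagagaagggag
miR-483-3p: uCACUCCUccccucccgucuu
The 4 seeds differ from one another, and no other mature mouse RNA of the table has any of them.

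Each library held 19801687 to 63623214 spliced reads. Knockout replicate 2 stood apart in how reads lay along long genes. The median ratio of the 3′ to the 5′ introns over 898 genes with at least 20 introns was 1.54 there and 1.21 to 1.24 in the other 5 libraries. The level and share differences below are also given without this library where it moved them. ES cell markers such as Pou5f1 and Dppa5a were high in all 6 libraries (sum of 11 measured markers, 2213 to 2512 CPM, spliced reads per 1000000 after scaling for library size), and 0 of 11 passed the edgeR test, which called 0.0177% of all genes. At an unadjusted edgeR p below 0.05, 2 of the 11 were higher in the knockout (Pou5f1 and Lin28a) and 2 lower (Tdgf1 and Nanog). Of all genes, 9.94% passed that threshold in either direction. Fibroblast or feeder markers summed to 1076 to 1424 CPM in wild-type libraries, against 825 to 1332 CPM in knockout libraries over 17 measured genes, of which Lum was lowest with 0 to 2 reads a library and 0 were at 0 in every library.

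H19 was the gene of the set whose level differed most between the groups. Its level, the spliced reads of its 4 introns in CPM, was 8.67, 12.3 and 5.95 CPM in wild-type replicates 2, 3 and 5. The knockout libraries had 108, 65.3 and 36.7 CPM. The lowest knockout library lay above the highest wild-type library, and the knockout libraries differed among themselves, with replicate 2 highest and replicate 5 lowest. Group means were 8.97 ± 3.18 and 69.997 ± 35.9 CPM (SD, n = 3), a log2 difference of 2.97 (SE 0.42). Without knockout replicate 2 the log2 difference was 2.51. All 4 introns differed alike, with log2 ratios from 2.79 to 3.23. The groups did not overlap at any of the 4, as at 13.8% of 148369 junctions of all genes.

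Among the knockout libraries, the summed fibroblast markers had the same order as H19, as did 11 of the 17 genes, while the other 6 did not. The share of all genes with that order was not counted, so nothing is read from the 11. In wild type the orders differed, H19 being highest in replicate 3 and the sum in replicate 2. Fbn1 ran the opposite way, at 12.2, 13.5 and 16.6 CPM in knockout replicates 2, 3 and 5. Col1a2, a fibroblast collagen gene, was at 142, 62.4 and 29.7 CPM in wild-type libraries, against 170, 105 and 11.9 CPM in knockout libraries. Fn1 alone made up 53.3% to 89.0% of the sum, and the other 16 genes summed to 475, 259 and 154 CPM in wild-type libraries, against 622, 398 and 90.6 CPM in knockout libraries. The groups overlapped in the sum with and without Fn1, and H19 did not. Whether cells of that kind account for part of H19 was not tested, and in bulk RNA fewer cells of a type and less RNA per cell cannot be told apart. Trophoblast markers summed to 146 to 234 CPM in wild-type libraries, against 123 to 332 CPM in knockout libraries (12 of 12 measured), also highest in knockout replicate 2. In that library the genes Krt8, Krt18 and Krt7 had 129, 87.1 and 24.6 CPM of the sum. Tfap2c, Eomes, Cdx2 and Gata3 were not highest there, while Hand1 and Ascl2 were. Extraembryonic endoderm markers summed to 556 to 596 CPM in wild-type libraries, against 462 to 672 CPM in knockout libraries (14 of 14 measured).

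Igf2, the reciprocally imprinted neighbour, did not separate the groups. It was at 13.1, 23.0 and 15.02 CPM in wild-type libraries, against 22.2, 16.3 and 7.77 CPM in knockout libraries. The highest value was wild-type and the lowest a knockout one, with the others mixed between them. Means were 17.1 ± 5.24 and 15.5 ± 7.28 CPM (SD, n = 3), a log2 difference of -0.14 (SE 0.37). The sign turned with single libraries: the value was 0.14 when wild-type replicate 3 was left out and 0.18 when knockout replicate 5 was. Leaving out knockout replicate 2 gave -0.51.

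**Figure D1:**
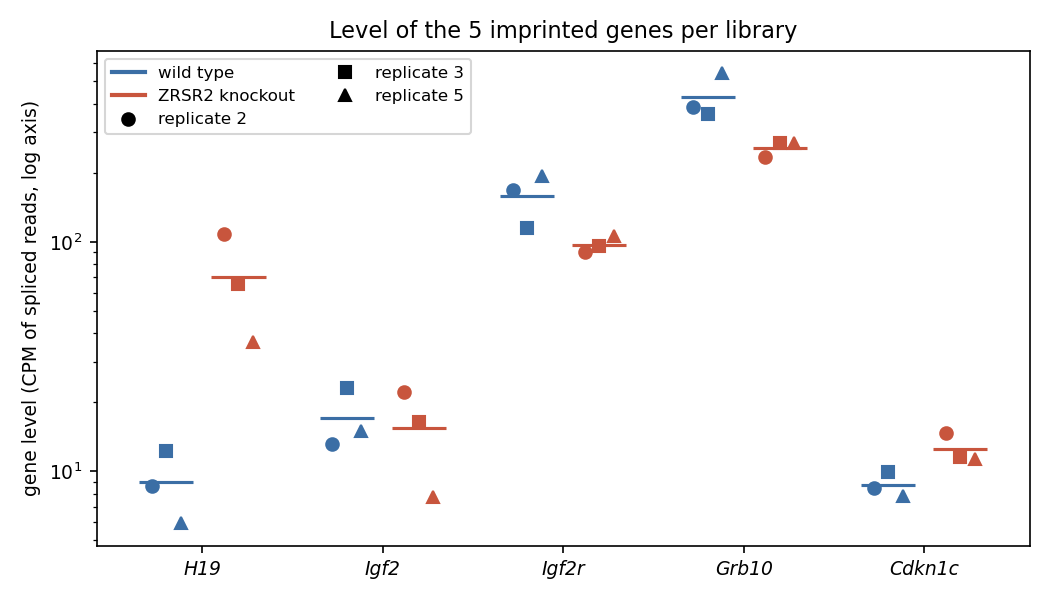
Level of each gene in CPM of spliced reads (log axis) in the 3 wild-type (blue) and 3 ZRSR2 knockout (red) libraries; marker shapes give the replicate number and bars the group mean. H19 and Cdkn1c lie higher in every knockout library, Igf2r and Grb10 lower, and the Igf2 values overlap.

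Igf2r, the receptor that removes IGF2, was lower in the knockout. Its levels were 168, 115 and 194 CPM in wild-type libraries, against 90.1, 95.6 and 106 CPM in knockout libraries. No values overlapped, though wild-type replicate 3 lay nearer to the knockout libraries than to the other wild-type ones. The log2 difference was -0.71 (SE 0.18), from 159 ± 40.5 to 97.2 ± 7.97 CPM (SD, n = 3), and -0.66 without knockout replicate 2. All 47 introns had a lower mean in the knockout, and at 25 of them the groups did not overlap, beside the 13.8% of all junctions.

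Grb10, the receptor adaptor, was the most abundant of the genes in wild type and, like Igf2r, lower in the knockout. Wild-type libraries had 386, 360 and 543 CPM, and knockout libraries 234.8, 268 and 269 CPM. The groups did not overlap, and the knockout libraries lay closer together than the wild-type ones. Means were 430 ± 98.7 and 258 ± 19.7 CPM (SD, n = 3), a log2 difference of -0.74 (SE 0.16), or -0.68 without knockout replicate 2. All 19 introns had a lower mean, 17 of them with no overlap, beside the same 13.8%. The 19 counts share reads, since an inner intron also holds those of the intron around it. Nearly all reads of intron 2 are those of intron 1. Introns 5 and 7 take in the reads of intron 6, and introns 10 and 12 those of intron 11.

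Cdkn1c, the p57 gene, differed the other way and by less. It was at 8.43, 9.95 and 7.82 CPM in wild-type libraries, against 14.7, 11.5 and 11.3 CPM in knockout libraries. Every knockout value was above every wild-type value, replicate 2 being the highest. Means were 8.73 ± 1.10 and 12.5 ± 1.90 CPM (SD, n = 3), a log2 difference of 0.52 (SE 0.18), or 0.39 without knockout replicate 2.

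These counts are set beside those over all genes. In edgeR's quasi-likelihood test over 16950 genes, 0 of the 5 genes were called at an adjusted p under 0.05, beside 0.0177% of all genes. DESeq2 called 3 of the 5 (H19, Grb10 and Igf2r), beside 1.31% of all genes. The groups did not overlap for 4 of the 5, beside 15.3% of all genes. Since these values chose the genes, nothing is read from the counts. The log2 difference of H19 stood at percentile 99.9 of all tested genes, Cdkn1c at 90.9, Igf2 at 33.8, Igf2r at 6.06 and Grb10 at 5.60.

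Levels can be set side by side between genes only per junction, here as the mean CPM of the junctions that no other listed intron overlaps. In wild type Grb10 stood highest at 27.1 ± 6.21 CPM per junction (SD, n = 3). Igf2 at 4.99 ± 1.45, Cdkn1c at 4.37 ± 0.55 and Igf2r at 3.46 ± 0.89 followed, and H19 was lowest at 2.24 ± 0.79. From Igf2 down to H19, the libraries of neighbours in that order overlapped. In the knockout H19 (17.5 ± 8.97) and Grb10 (16.5 ± 1.48) overlapped, then came Cdkn1c at 6.27 ± 0.95, Igf2 at 4.45 ± 2.18 and Igf2r at 2.12 ± 0.17, again with libraries of these last 3 neighbours overlapping.

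The ratio of H19 to Igf2 per junction was steadier than either gene in the knockout. It was 0.554, 0.463 and 0.337 in wild-type libraries, against 4.08, 3.67 and 4.04 in knockout libraries. Wild-type libraries thus held less H19 than Igf2 and knockout libraries more, in every one of the 6. Means were 0.451 ± 0.109 and 3.93 ± 0.224 (SD, n = 3), 8.71-fold apart. Within the knockout both genes were highest in replicate 2 and lowest in replicate 5, with H19 between 108 and 36.7 CPM while the ratio stayed between 3.67 and 4.08. In wild type the ratio spread nearly as widely as Igf2, which was at 3.92, 6.63 and 4.41 CPM per junction.

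Most Igf2 reads came from the middle of 3 first exons in all 6 libraries. Reads that join a first exon to the shared second exon, counted without those of longer listed introns around them, came to 60, 311 and 240 in wild-type libraries, against 328, 134 and 66 in knockout libraries. The middle first exon, from the start at chr7:142658804, gave 65.0%, 67.2% and 66.3% of them in wild-type libraries, against 65.9%, 72.4% and 72.7% in knockout libraries. Its 95% exact Clopper-Pearson intervals run from 51.6% to 76.9% in wild-type replicate 2 and from 60.4% to 83.0% in knockout replicate 5. The groups overlap through knockout replicate 2, the other knockout libraries lying above all wild-type ones. The difference of the means was 4.17 percentage points, or 6.41 without knockout replicate 2, and 1.76 between the pooled reads of the groups. These intervals cover counting error only.

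The downstream first exon, from chr7:142657496, held 30.3% ± 1.89 in wild-type libraries, against 28.8% ± 4.38 in knockout libraries (SD, n = 3). The upstream first exon was rare, with 4, 7 and 4 reads in wild type and 1 read in each knockout library. Its share was 6.67%, 2.25% and 1.67% in wild-type libraries, against 0.305%, 0.746% and 1.52% in knockout libraries, with no overlap but on these few reads. Pooled, it was 15 of 611 reads in wild type, 2.45%, and 3 of 528 in the knockout, 0.568%. On the other strand, the 2 listed introns of the antisense gene Igf2os stayed between 0.0557 and 0.397 CPM.

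**Figure D2:**
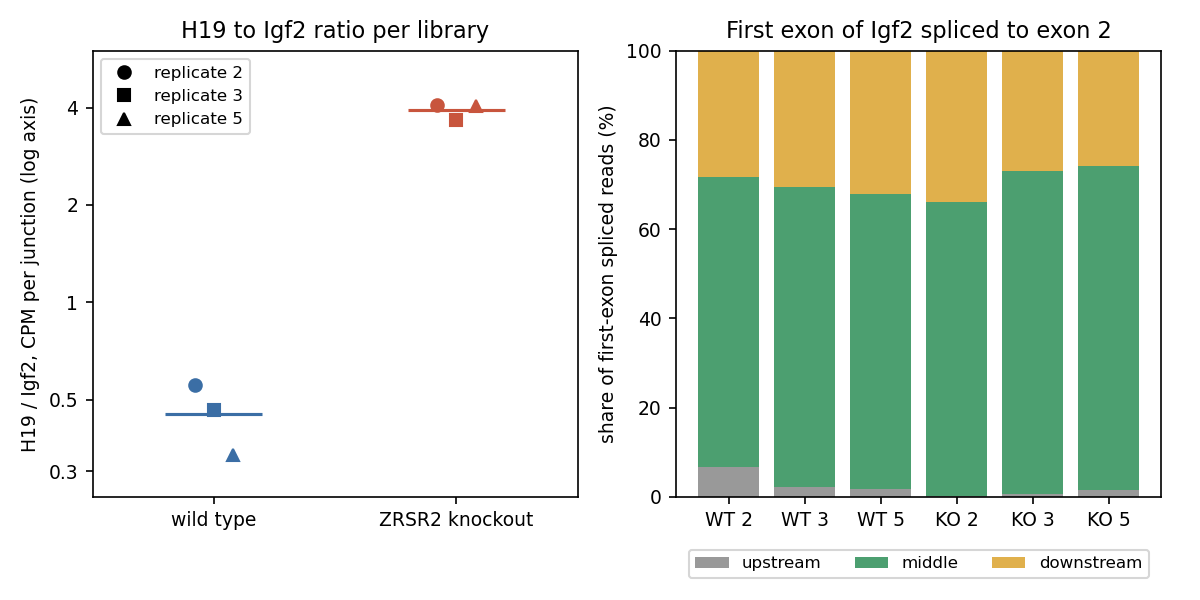
Left, the ratio of H19 to Igf2 in CPM per junction (log axis) per library, with bars for the group means of 0.451 and 3.93. Right, the share of the 3 first exons of Igf2 in the reads that join them to exon 2, for wild-type (WT) and knockout (KO) replicates 2, 3 and 5; the middle exon gives between 65.0% and 72.7% in each.

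Of the 2 listed first exons of Grb10, nearly all reads came from 1. The upstream exon, from chr11:12037420, gave 367, 1027 and 1953 joining reads in wild-type libraries, against 742, 358 and 414 in knockout libraries. The downstream exon, from chr11:12027971, gave 0, 3 and 0, and 0, 2 and 0. That is 5 of 4866 reads in all, 0.103% (interval 0.0334% to 0.240%). In the mouse the upstream promoter is known for maternal expression in most tissues and the downstream ones for paternal expression in neurons. The window of the used start holds 40 CG dinucleotides and that of the other 8. Whether the CG content of a window bears on the use of its start was not tested, for Grb10 or for Igf2.

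Inside Grb10 an exon of 164 bases, chr11:11954744-11954907, was skipped in 3.20%, 5.97% and 1.83% of wild-type reads and in 2.89%, 5.0% and 2.92% of knockout reads. The groups overlap, with means of 3.66% ± 2.11 and 3.60% ± 1.21 (SD, n = 3). An exon of 137 bases, chr11:11945495-11945631, was skipped in 0.640% ± 0.258 and 0.639% ± 0.374. In the test of junction usage 0 of the 77 introns were called by edgeR, beside 0.0% of 148369 introns tested. An unadjusted p below 0.05 was reached by 7 of the 77, beside 4.39% of all tested introns.

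Igf2r was lower in the knockout along its whole length. The 15 introns of the 5′ part averaged 3.22, 1.96 and 3.52 CPM in wild-type libraries, against 1.24, 1.66 and 1.89 CPM in knockout libraries, a log2 ratio of -0.86. The 15 middle introns gave -0.73 and the 15 introns of the 3′ part -0.60. Without knockout replicate 2 the 3 values were -0.71, -0.64 and -0.64. The highest knockout library lay below the lowest wild-type one in each stretch. The 3′ to 5′ ratio of Igf2r was 1.32, 1.59 and 1.42 in wild-type libraries, against 2.33, 1.51 and 1.48 in knockout libraries. Knockout replicate 2 was the high one, as it was in the median over the 898 long genes, and the log2 difference of this ratio was 0.29 with it and 0.05 without it.

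**Figure D3:**
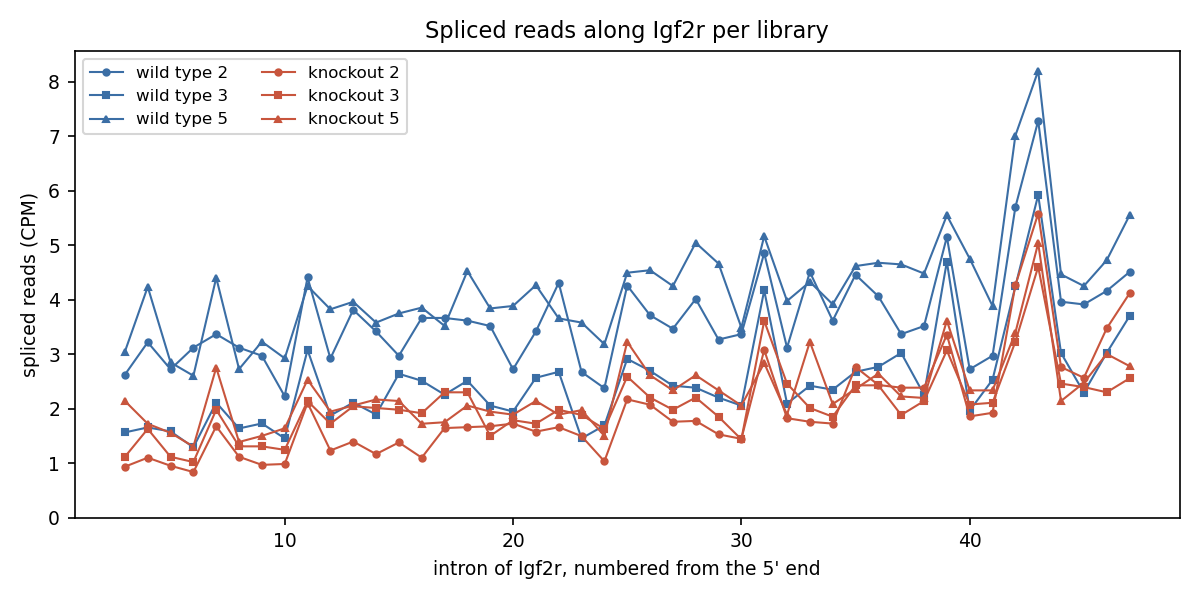
Spliced reads in CPM at the 45 introns of Igf2r that no other listed intron overlaps, numbered from the 5′ end, for the 6 libraries (wild type blue, knockout red). The 2 upper wild-type lines are replicates 2 and 5; wild-type replicate 3 runs close to the knockout lines, and all libraries peak at intron 43.

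Airn, the paternal noncoding RNA that runs antisense to Igf2r and silences its paternal copy, starts within Igf2r. Its first intron was crossed by 5, 6 and 24 spliced reads in wild-type libraries, against 12, 4 and 2 in knockout libraries. Of these, 5, 6 and 17, against 8, 2 and 1, went to its long acceptor, and the rest to its middle acceptor. Reads to both acceptors are also counted in intron 1 of Igf2r, which held 21, 41 and 79 reads and 35, 21 and 23, since a spliced count takes in reads of a longer intron on either strand. Airn as a gene averaged 1.80 CPM in wild-type libraries, against 0.936 CPM in knockout libraries, and edgeR did not call it. Those sums count a read in each intron nested within its gap. With own reads Airn had 8, 7 and 41 reads in wild-type libraries, against 21, 10 and 8 in knockout libraries, or 0.383 ± 0.249 and 0.296 ± 0.0649 CPM (SD, n = 3), with overlap.

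MSI, the deposited missplicing index, gives the unspliced reads at the 2 ends of an intron as a percent of these plus 2 times its spliced reads, and it was low in most introns of these genes. Over the 95371 introns with enough reads the median of the pooled MSI was 1.04%, and 32.5% of introns exceeded 2%. Pooled over introns, H19 was at 0%, 0.222% and 0.889% in wild-type libraries, against 0.561%, 0.560% and 1.24% in knockout libraries. Igf2 was at 1.12%, 1.02% and 2.48%, and 0.845%, 1.35% and 1.93%. The groups overlap in both genes, and the 0% of H19 in wild-type replicate 2 rests on 175 spliced reads.

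Igf2r was at 0.985% ± 0.122 in wild-type libraries, against 0.869% ± 0.0235 in knockout libraries (SD, n = 3), and Grb10 at 0.5004% ± 0.120 and 0.571% ± 0.0768. Cdkn1c was the least completely spliced of the genes, at 4.76%, 5.62% and 5.52% in wild-type libraries, against 5.55%, 7.79% and 4.35% in knockout libraries. Its intron 1, chr7:143460716-143460852, 137 bases long, had a pooled MSI of 7.34%, at percentile 94.0 of all tested introns. Reads lay at both its ends, 163 at the donor and 126 at the acceptor. Without knockout replicate 3 the difference of Cdkn1c, 0.59 percentage points, was -0.35.

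In the test of retention 0 of 74 tested introns of the 5 genes were called by edgeR, beside 0.0273% of 95371 introns. An unadjusted p below 0.05 was reached by 5 of the 74, beside 4.14% of all tested introns. The groups did not overlap in MSI at 10 of the 74, beside 7.91% of all tested introns. The knockout was higher at 2 introns of H19, 3 of Igf2r and 2 of Grb10, and lower at 3 of Igf2r. The 2 of H19 were intron 1, at 0%, 0% and 0.369% against 0.493%, 0.530% and 1.17%, and intron 4, at 0%, 0.952% and 0.606% against 1.29%, 1.45% and 2.56%. The wild-type values rest on 0, 0 and 1 unspliced reads at intron 1 and 0, 3 and 1 at intron 4. Igf2r intron 31, lower in the knockout, had 1 unspliced read in each wild-type library and 0 in each knockout library. Intron 1 of Igf2, which joins the rare upstream first exon, had the highest pooled MSI of the set, 39.0%, on 18 spliced reads. Its acceptor is shared with introns 2 and 3, so the same unspliced reads count for all 3, and their own MSI was 1.995% and 1.30%. Igf2 intron 4, which contains miR-483, was at 0.471%.

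**Figure D4:**
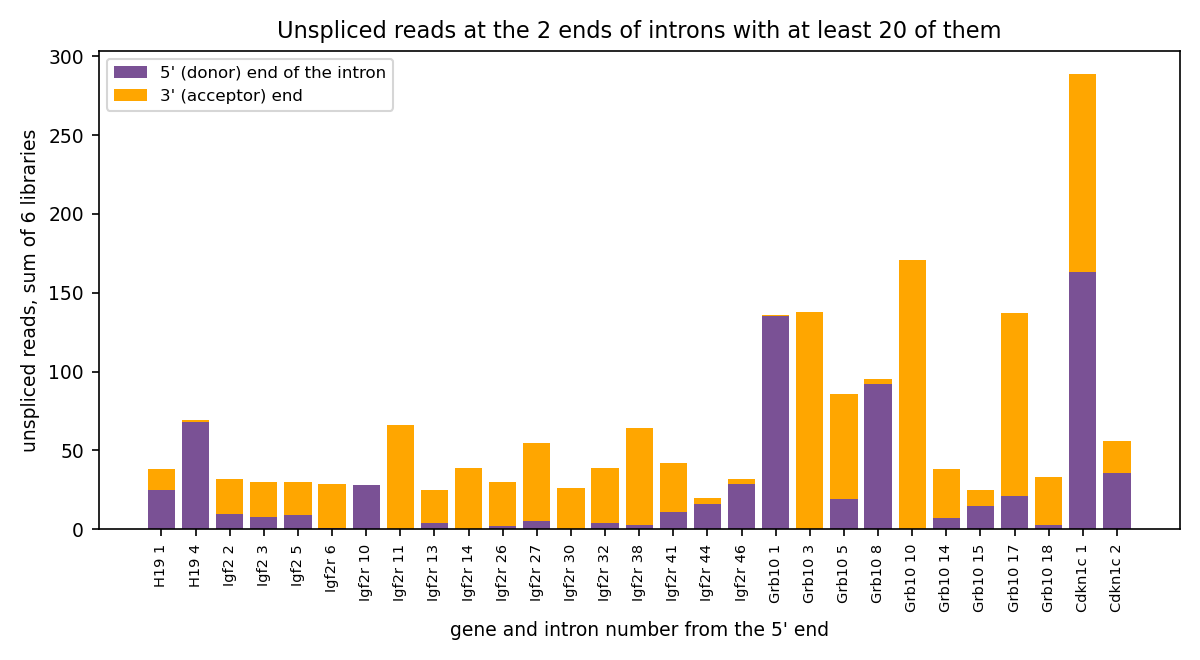
Unspliced reads at the donor (5′) and acceptor (3′) end of the 29 introns of the 5 genes that held at least 20 of them, summed over the 6 libraries; names give the gene and the intron number from the 5′ end. Grb10 introns 3 and 10 have reads at the acceptor end only, and H19 intron 4 and Grb10 introns 1 and 8 almost only at the donor end.

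Unspliced reads often sat at 1 end of an intron. A fully retained intron gives reads at both ends, as Cdkn1c intron 1 did. At least 95% of the unspliced reads lay at 1 end in 11 of the 29 member introns with at least 20 such reads, and in 15.7% of 51505 introns of all genes. In Grb10, introns 3 and 10 had 138 and 171 reads at the acceptor and 0 at the donor, while intron 1 had 135 at the donor and 1 at the acceptor. H19 intron 4, chr7:142576114-142576202, had 68 at the donor and 1 at the acceptor. Igf2r introns 11 and 14 had 66 and 39 at the acceptor and 0 at the donor.

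The wider pathways of these genes were counted from lists. Of 141 tested genes in 9 lists, edgeR called 0 higher and 0 lower, where it called 0.0177% of all genes. An unadjusted p below 0.05 was reached by 24 of the 141, 10 higher and 14 lower. That is a larger share than the 9.94% of all genes, in lists chosen with earlier results of these data known. DESeq2 called 3, all higher: Gga1, Dlk1 and Meg3. The median log2 change over the 141 was -0.01, as over all tested genes. The counts of positive and negative changes given below stand beside 8312 positive and 8638 negative of all 16950 tested genes.

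Of 11 tested IGF ligands, receptors and binding proteins, 0 were called, 7 had a negative log2 change, and the median was -0.35. Igf1r, the receptor through which IGF2 signals, was at 26.5, 19.8 and 28.3 CPM in wild-type libraries, against 16.9, 17.2 and 15.01 CPM in knockout libraries, without overlap (log2 change -0.60, SE 0.16, edgeR adjusted p = 0.43). Insr, the insulin receptor, was at 16.4, 11.5 and 17.9 CPM and 9.27, 9.21 and 10.3 CPM (log2 change -0.67). Igfbp2, the most abundant binding protein of the list, was at 314 ± 80.6 and 246 ± 83.0 CPM (SD, n = 3) with overlap.

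Of 30 tested genes of IGF receptor signalling, 0 were called, and the median log2 change was -0.08. Nedd4, the ubiquitin ligase that partners GRB10, was at 2186 ± 72.6 and 2009 ± 385 CPM, and Tsc2, a brake on growth signalling, at 218 ± 19.1 and 228 ± 18.7 CPM (SD, n = 3). Among 7 RNA-binding proteins of Igf2 and H19, 0 were called; Igf2bp1, which binds both RNAs, was at 381 ± 33.2 and 396 ± 58.9 CPM, and Khsrp at 513 ± 7.84 and 479 ± 32.3 CPM. Among 19 kinase inhibitors, kinases and cyclins, the partners of p57, 0 were called, and Cdk4 was at 634 ± 29.8 and 698 ± 44.3 CPM and Ccnb1 at 429 ± 27.1 and 427 ± 27.0 CPM.

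Of 14 genes of mannose 6-phosphate sorting, the route that the Igf2r protein serves, 0 were called by edgeR. Gga2, an adaptor of that route, was at 325 ± 12.3 and 323 ± 22.5 CPM and Vps35, of the retrieval complex, at 215 ± 22.7 and 194 ± 7.56 CPM. Gga1, named after its values were seen, was at 46.1, 44.2 and 47.5 CPM in wild-type libraries, against 90.4, 77.2 and 71.9 CPM in knockout libraries.

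Of 25 genes listed as imprint control factors, 0 were called and the median log2 change was 0.00. Trim28 was at 2368 ± 457 and 2832 ± 129 CPM, and Dnmt3l at 806 ± 411 and 1249.5 ± 65.8 CPM, both overlapping between groups. Of 10 tested genes of the imprinted gene network, the other growth genes known to move with H19 and Igf2, 0 were called, 8 had a positive log2 change, and the median was 0.38. Meg3, a maternal noncoding RNA, was at 199, 233 and 194 CPM in wild-type libraries, against 389, 360 and 269 CPM in knockout libraries, without overlap (log2 change 0.70, SE 0.15). Gnas was at 502 ± 118 and 441 ± 63.5 CPM.

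Of 18 neighbours on chromosome 7, 0 were called and 14 had a positive log2 change, beside 8312 of all 16950 tested genes. Their median was 0.20. The 2 of highest mean CPM were Nap1l4, at 339 ± 2.94 and 349 ± 6.37 CPM, and Ctsd, at 196 ± 16.6 and 183 ± 28.3 CPM. The groups did not overlap for 3 of the 18, Th, Kcnq1 and Nap1l4, beside 15.3% of all genes. Th was low, at means of 0.349 and 1.19 CPM, as was Kcnq1, at 0.469 and 1.23 CPM. Of 9 neighbours on chromosomes 11 and 17, 0 were called and 8 had a negative log2 change, beside 8638 of the 16950. Cobl, beside Grb10, was at 32.9 ± 3.73 and 28.9 ± 12.7 CPM, and Map3k4, near Igf2r, at 114 ± 16.0 and 88.3 ± 5.30 CPM.

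The genes whose log2 CPM followed each member most closely were found by Pearson's r over the 6 libraries among 11821 genes, as a description, since all share the same libraries and group difference. For H19 they were Rps6kl1, Tor3a, Plac9b, Myl9 and Tmem254b, with r from 0.988 to 0.994, and 49 genes reached 0.95. Myl9, a smooth muscle and fibroblast myosin light chain, was at 3.62, 3.50 and 2.29 CPM in wild-type libraries, against 11.7, 8.45 and 6.49 CPM in knockout libraries. Igf2 was followed by Bcap31, Galnt9 and Uchl1 (0.976 to 0.980), with 11 genes at 0.95 or more. Igf2r was followed by Extl3, Clip4 and Insr (0.996 to 0.9998), Grb10 by Sppl3, Reck and Slc15a1 (0.994 to 0.995) and Cdkn1c by Arpc5l, Myl12a and Atp5c1 (0.990 to 0.993). At 0.95 or more stood 259 genes for Igf2r (2.19% of the 11821), 142 for Grb10 (1.20%) and 77 for Cdkn1c (0.651%). The shares were 0.415% for H19 and 0.0931% for Igf2.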

How the data were processed

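Each library came as a table of introns with mm10 coordinates, per the submitters' processing notes. For the aligner and the counting tool, none is named: not given in the sources used here. The authors deposited 2 counts of unspliced reads (1 per intron end), a count of spliced reads, a covered fraction and MSI, the missplicing index in percent. MSI equalled 100 × unspliced / (unspliced + 2 × spliced) in all 1319670 deposited values, to 0.01 points. The deposited spliced count of an intron also holds reads of longer introns around it on either strand: the inner count was at least the outer in 113450 of 113450 same-strand and 25253 of 25253 opposite-strand comparisons. Own reads, used for first-exon shares and exon skipping, subtract those of listed containing introns; 664 values came out negative and were set to 0.

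Gene level is the sum of the spliced counts over the introns of a gene, scaled to CPM with TMM library sizes. Genes were tested with edgeR 4.0.16 (R 4.3.3, quasi-likelihood, filterByExpr, genotype only), retention and junction usage as interactions with a term per library and a minimum of 20 reads, each with Benjamini-Hochberg adjustment over the whole table. The tests were tested on simulated data with known changes. DESeq2 1.42.0, limma 3.58.1, other scalings and filters, and leaving out each library were alternatives. Members, lists and tests were chosen with earlier results of these data known; own reads as a correction, and the sums without Fn1 and along Igf2r without 1 library, were added after seeing the data. From each list, called genes or else the 2 of highest mean CPM are named; other list genes were named after their values were seen. Marker lists for mesoderm (10 of 10 measured, 7.81 to 10.9 CPM in sum) and neural cells (9 of 10, 60.1 to 70.8 CPM) were also summed. Sequences are RefSeq's, GRCm38.p6; H19 and Cdkn1c promoter windows were not used here.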

Additional observations from a re-analysis of the deposited data

Results flagged for a closer look

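The deposited covered fraction, the part of an intron's length that reads cover, was not used in the comparisons above. For H19 intron 1 it was 1 in each knockout library, against 0.0123, 0.0123 and 0.148 in wild-type replicates 2, 3 and 5 (mean 0.0576). This was 1 of the 77 introns with every knockout library above every wild-type library, and 15 of the 77 had every knockout library below, beside 1.04% and 3.10% of all 219945 introns. All 15 lie in Igf2r and Grb10, which were selected on their levels and were lower in the knockout. The shares over all introns also take in introns with too few reads to be tested, so nothing is read from the counts. The knockout libraries also held more spliced reads of H19 intron 1, 2019, 657 and 421 against 60, 209 and 135, and the part of read number in the covered fraction was not tested.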

How the results depend on the processing

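edgeR called 3 genes in all. The count was 222 with DESeq2, 7 with no filter on low counts, 5 with own reads and 8 with a replicate block, and 0 to 35 when each library was left out in turn (leaving out wild-type replicate 2 or 5 gave 1, wild-type replicate 3 gave 35, knockout replicate 3 gave 0 and knockout replicate 5 gave 22; 1111 genes had an unadjusted p under 0.05 where 0 were called). Of the 5 genes, H19 was called with the block and when knockout replicate 5 was left out, and Igf2r when wild-type replicate 3 was. Samples of the same number correlated at 0.10, 0.12 and 0.01 in their deviations from the group means, so the numbers were not taken as pairs. The retention count of 26 introns was 0 with limma and 7 to 25 with each library left out (15 and 7 when wild-type replicates 2 and 5 were left out, 16 when knockout replicate 3 was), and the 0 calls of junction usage became 1 with at least 100 reads. List calls went from 0 to 3 with DESeq2. The knockout minus wild-type difference in the middle first exon of Igf2, 4.17 percentage points, was 1.12 with spliced counts as deposited and 2.97 to 6.41 with each library left out. H19, Igf2r, Grb10 and Cdkn1c kept the sign of their log2 difference in all 12 alternatives each, H19 between 2.51 and 3.28; Igf2 ran from -0.51 to 0.18. The H19 to Igf2 log2 ratio stayed between 2.95 and 3.30 without each library in turn. Depth limits the Igf2 first exons, with 60 joining reads in wild-type replicate 2, and the antisense genes.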
